A study of Mus musculus with 8 samples.

Results

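The astrocyte genes described here are 37 genes, of 18193 genes with a named probe set on the array, that mark astrocytes or carry out their transport and metabolic work. They comprise filaments, glutamate and amino acid transporters, water, urea and ion channels with their partners, junction proteins, metabolic enzymes, lipid-binding and secreted proteins, receptors and transcription factors. The genes were listed by name and not by their values, although earlier results of these data were known when the list was chosen. Each gene was read from the probe set that was annotated to its symbol alone and had the highest mean log2 signal over the 8 arrays. All 37 had such a probe set.

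Optic nerves of mice aged 35 to 45 days were kept as organotypic cultures for 3 days, either with 20 mM lithium chloride or in control medium, which the labels give as saline. Total RNA from 4 lithium and 4 control samples was measured on Affymetrix mouse arrays, and the comparison asks how lithium altered gene expression in the nerve. The labels give 6 nerves to a sample and the C57BL/6 strain for both groups, whereas the paper names C57/BL10 and counts the nerves in another way. No source states that samples of a group came from separate animals or cultures, and the p-values therefore reflect no more than the spread of these samples, possibly a technical one. The labels name no transgene or mutation in either group. The whole nerve was extracted, so that oligodendrocytes, microglia, vessels and sheath contributed RNA with the astrocytes.

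Astrocytes of the optic nerve take up glutamate and convert it to glutamine, clear potassium and move water at endfeet on vessels, and are coupled into a network by connexins. They also carry enzymes of folate, sugar, fatty acid and thyroid hormone metabolism that neighbouring cells lack or hold at lower levels. Several of their genes, such as those of the glial filament and of vimentin, are known to rise in reactive astrocytes.

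The data were linear signals of the MAS5 algorithm, in which the mean of each array without its extremes had been scaled to 100. Of the 37 genes, 24 had a mean signal of at least 200 over the 8 arrays and 2 (Slc7a10 and Cldn10) had a mean under 10. The median signal over all probe sets lay between 14.77 and 17.52 on the control arrays and between 12.3 and 16.5 on the lithium arrays, with the lowest on lithium array 1. Fold changes are differences of mean log2 signals, lithium minus control, with limma's standard error and its 95% interval. A gene was called at a Benjamini-Hochberg adjusted p under 0.05 over all probe sets.

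Lithium lowered 1 of the 37 astrocyte genes past this threshold, the urea transporter Slc14a1, and raised 0. The called share of 2.70% compares with 2.05% of all genes called lower, and 1.18% of all genes were called higher. The major filament, glutamate transporter and glutamine synthetase genes differed little on the probe sets used, and the lowest fold changes of genes above background were those of Slc14a1, the deiodinase Dio2 and the receptor Ntsr2. At an unadjusted p under 0.05, 8 of the 37 genes (21.6%) were lower, against 12.6% of all genes, and 1 was higher, against 9.38%. In RNA from a whole nerve, fewer astrocytes and less RNA in each astrocyte cannot be told apart. The paper counted reporter-labelled astrocytes in cultured nerves of transgenic mice and reports that lithium raised their number. That count was made in other nerves than those measured here.

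All 4 lithium signals lay below all 4 control signals for 5 genes (Slc14a1, Slc4a4, Cldn10, Dio2 and Fabp7), or 13.5%, against 8.79% of all genes. They lay above all control signals for Pla2g7 alone, or 2.70%, against 6.30% of all genes. The median log2 fold change of the 37 genes was -0.11, or -0.10 without Cldn10, whose lithium signals were not above background, against 0.00 over all genes. The astrocyte median varied by an SD of 0.09 between replicates, and 22 of the genes (59.5%) had a negative log2 fold change, against 50.3% of all genes. For 21 genes the 95% interval lay wholly between -1 and 1 on the log2 scale.

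**Figure D1:**
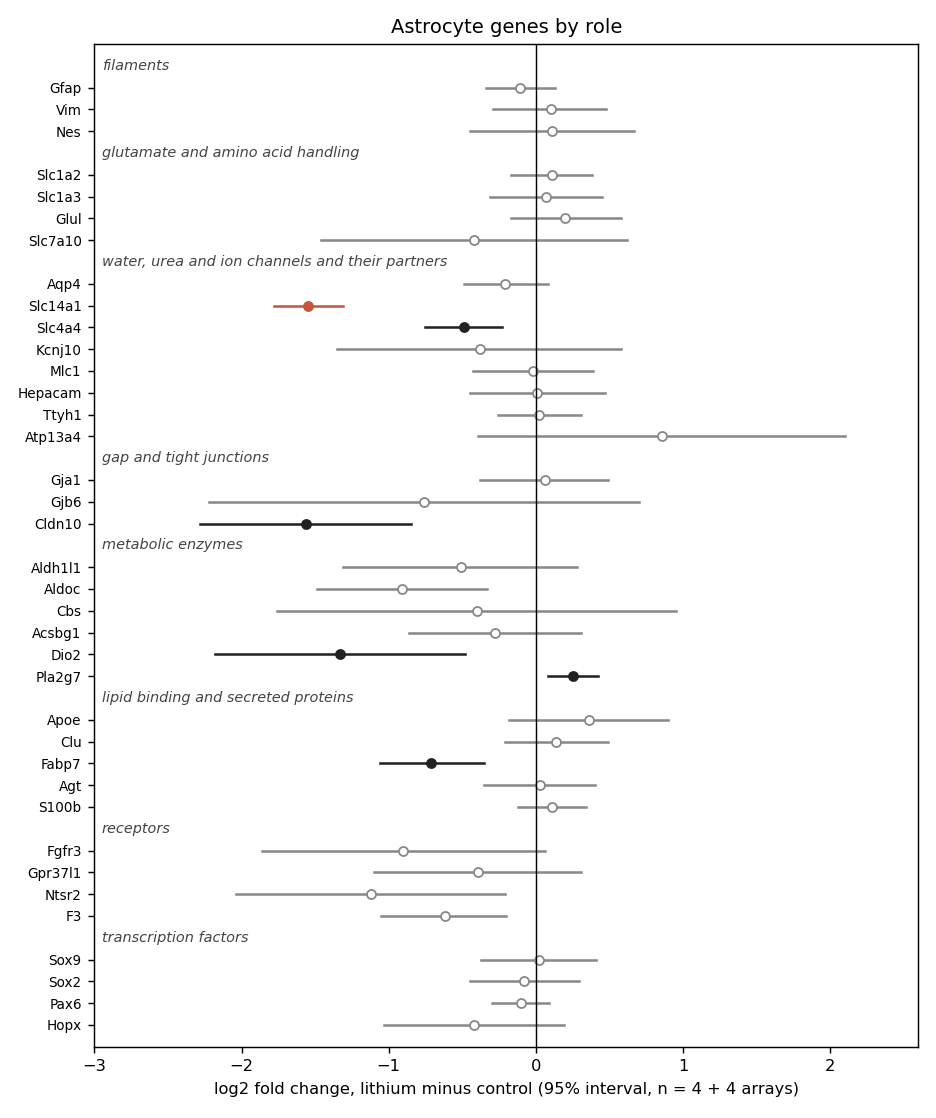
Log2 fold change of each astrocyte gene, lithium minus control, with its 95% interval from limma (n = 4 and 4 arrays), grouped by role. The red point is the called gene Slc14a1 (-1.55), black points are other genes whose groups did not overlap, and open points are genes whose groups overlapped; the value of Cldn10 is set in part by the floor. Filament and glutamate transporter genes sit near 0, and all 4 receptors sit below it.

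The filament genes did not pass the test in either direction, and their log2 fold changes ran from -0.11 to 0.11. Gfap, which encodes the intermediate filament of mature astrocytes, had signals of 1471 to 1687 in control and 1266 to 1622 in lithium (log2 fold change -0.11, 95% interval -0.34 to 0.13, adjusted p = 0.668). Vim, a filament of immature and reactive glia and of mesenchymal cells, lay between 2240.5 and 2263 on the control arrays and between 1912 and 3275 on the lithium arrays. The control arrays were thus nearly equal for Vim, and the lithium arrays lay on both sides of them. Nes, a filament of progenitors and of reactive astrocytes, had means of 603 ± 178 in control and 634 ± 92.7 in lithium (SD, n = 4 and 4). For another Gfap probe set the value was 0.20 on the log2 scale, against -0.11 for the one used, and neither passed the test (adjusted p = 0.474 and 0.668).

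Glutamate handling showed a similar narrow range on the probe sets used, apart from Slc7a10. Slc1a2, the transporter GLT-1, had a mean signal of 553 ± 62.7 in control and 596 ± 68.3 in lithium (SD, n = 4 and 4), a log2 fold change of 0.11 with a 95% interval of -0.17 to 0.38. Slc1a3, the transporter GLAST, had means of 895 ± 99.9 and 949 ± 204 (log2 fold change 0.07, interval -0.31 to 0.45). Glul, which encodes glutamine synthetase, had means of 1569 ± 128 and 1833 ± 408 (log2 fold change 0.20, interval -0.17 to 0.58, adjusted p = 0.586). On the probe sets used, these 3 genes and the 3 filament genes had no log2 fold change beyond 0.20 in either direction. Other probe sets, all of lower signal, ran from -0.67 to 0.43 for Slc1a2 and from -0.43 to 0.59 for Slc1a3, and none was called. Slc7a10, the neutral amino acid exchanger Asc-1, gave signals of only 2.02 to 7.69 over the 8 arrays and a log2 fold change of -0.42 whose interval ran from -1.46 to 0.62.

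Slc14a1 encodes the urea transporter UT-B, which astrocytes carry along with red blood cells and some vessels. Its signals were 204, 219, 241 and 237 in controls 1 to 4 and 66.1, 80.9, 84.1 and 78.2 in lithium samples 1 to 4. Every lithium value was well below every control value, and the arrays of each group lay close together. The mean fell from 225 ± 16.9 to 77.3 ± 7.90 (SD, n = 4 and 4), a log2 fold change of -1.55 ± 0.10 (SE) or 2.92-fold lower, with an adjusted p of 0.00688. Its other probe set gave means of 94.4 and 40.0 and a log2 fold change of -1.26, with an adjusted p of 0.0201. These were the only 2 called of the 87 probe sets of the 37 genes.

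The fall in Slc14a1 had nearly the same size in each pair of array numbers, -1.53 on the log2 scale in arrays 1 and 2 and -1.56 in arrays 3 and 4. With only 2 arrays a group neither passed (adjusted p = 0.132 and 0.114). With each array left out in turn its adjusted p lay between 0.00973 and 0.0280. In the fit with the replicate block it was 0.0386.

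Slc4a4, the sodium bicarbonate cotransporter NBCe1, had signals of 543, 515, 476 and 467 in controls 1 to 4 and 369, 296, 406 and 362 in lithium samples 1 to 4. The groups did not overlap, but the log2 fold change of -0.49 ± 0.11 (SE) did not pass the test (adjusted p = 0.0768). Its probe sets differed in sign, since 2 of the other 4 had log2 fold changes of 0.42 and 0.45 and 2 had -0.29 and -0.48, none of them called. The 2 that rose were dim, with control and lithium means of 12.9 and 17.9 and of 1.81 and 2.44. The 2 that fell had means of 49.3 and 42.5 and of 147 and 113. Slc4a4 was called, at the same fold change, when only probe sets with a mean of at least 200 in one group were tested (adjusted p = 0.0353). It was also called with log2 of the value plus 16 (adjusted p = 0.0451). It was not called after median centring (adjusted p = 0.350) or with the replicate block (adjusted p = 0.142). With its probe sets averaged, the dim ones at equal weight, the log2 fold change was -0.08 (adjusted p = 0.878).

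The other channel and transport genes overlapped between the groups. Aqp4, the water channel of astrocyte endfeet, had means of 1143 ± 73.9 in control and 998 ± 151 in lithium (SD, n = 4 and 4; log2 fold change -0.21, 95% interval -0.49 to 0.08, adjusted p = 0.440). Lithium arrays 1 and 2 had signals of 865 and 873, below all other arrays, and lithium arrays 3 and 4 had 1156 and 1097, within the control range of 1039.5 to 1212. Kcnj10, the potassium channel Kir4.1, ranged from 382 to 971 in control and from 264 to 725 in lithium, a spread that left an interval of -1.35 to 0.58 around its log2 fold change of -0.38. Atp13a4, a P5-type transport ATPase, had the highest fold change of the list, 0.86 on the log2 scale, but its lithium signals ran from 25.6 to 133 and the interval reached from -0.39 to 2.10 (adjusted p = 0.467).

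Mlc1, a membrane protein of perivascular endfeet, and its adhesion partner Hepacam, or GlialCAM, had log2 fold changes of -0.02 and 0.01. Ttyh1, of the tweety family, had one of 0.02. Their 95% intervals all lay between -0.45 and 0.47.

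**Figure D2:**
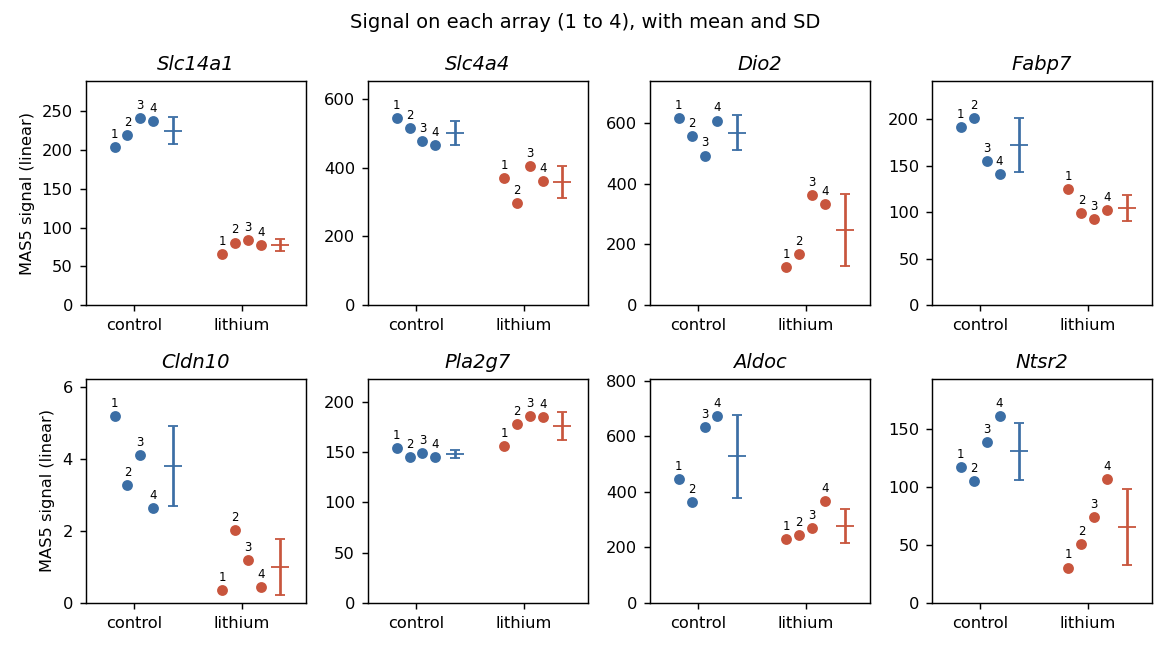
Linear MAS5 signal of 8 astrocyte genes on each control (blue) and lithium (red) array, numbered 1 to 4, with the mean and SD of each group (n = 4) beside the points. Each panel has its own axis from 0. Slc14a1 falls from 204 to 241 in control to between 66.1 and 84.1 in lithium, and Aldoc and Ntsr2 each have a lithium array that reaches just into the control range.

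None of the junction genes passed the test. Gja1, or connexin 43, had means of 1485 ± 152 in control and 1573 ± 402 in lithium (SD, n = 4 and 4; log2 fold change 0.06, 95% interval -0.38 to 0.49). Its 6 probe sets gave log2 fold changes between -0.66 and 0.06, none of them called. Gjb6, or connexin 30, had signals of 25.3 to 38.5 in control, of 9.96 and 8.82 on lithium arrays 1 and 2 and of 22.1 and 61.9 on lithium arrays 3 and 4. Lithium arrays 1 and 2 were below every control array for Gjb6 and lithium array 4 was above every one, so that its log2 fold change of -0.76 had an interval of -2.22 to 0.70. Measured within each array, the log2 difference between Gjb6 and Gja1 had a lithium minus control value of -0.82, which an exact permutation test with 70 splits did not separate from 0 (two-sided p = 0.343, adjusted over 6 gene pairs 0.886).

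Cldn10, a claudin, was close to the background of the array and did not pass the test (adjusted p = 0.0530). Its signals were 5.18, 3.26, 4.10 and 2.63 in controls 1 to 4 and 0.348, 2.03, 1.18 and 0.437 in lithium samples 1 to 4. All lithium values were under the highest signal of the poly-A spike control probe sets on the same array, which was between 3.56 and 4.33. No fold is given for it, because the bound against these signals was under 1, and its plotted value is set in part by the floor of 1.

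The metabolic enzymes included 5 genes with negative fold changes among 6, none of them called. Dio2, the deiodinase that makes active thyroid hormone in astrocytes, had signals of 614, 556, 492 and 607 in controls 1 to 4 and 125, 169, 362 and 334 in lithium samples 1 to 4. The groups did not overlap, and lithium arrays 1 and 2 were lower than lithium arrays 3 and 4. Its mean was 567 ± 56.4 in control and 247 ± 118 in lithium (SD, n = 4 and 4), and the log2 fold change of -1.33 ± 0.36 (SE) had an adjusted p of 0.113. The other probe sets of Dio2 also had lower means in lithium, 13.3 against 21.7 and 39.1 against 57.3, without passing the test. On both of them the groups overlapped. Lithium arrays 1 and 2 lay below every control there, and lithium array 3 (28.5 and 73.1) lay above every control. With only probe sets at a level of 200 or more tested, Dio2 passed (adjusted p = 0.0294). It did not pass with the replicate block (adjusted p = 0.168) or with its probe sets averaged (adjusted p = 0.283).

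Aldoc, the brain isoform of the glycolytic enzyme aldolase, had signals of 445, 362, 635 and 673 in controls 1 to 4 and 231, 246, 269 and 366 in lithium samples 1 to 4. Lithium array 4 lay just above control array 2, and the other lithium arrays lay below all controls. The log2 fold change was -0.91 ± 0.24 (SE), or 1.87-fold lower, with an adjusted p of 0.114. Aldoc passed with the level of 200 required (adjusted p = 0.0335) and with a term for arrays 1 and 2 against arrays 3 and 4 (adjusted p = 0.0219). It did not pass with the replicate block (adjusted p = 0.0796) or with any single array left out (adjusted p = 0.0971 to 0.226).

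Pla2g7, which encodes the acetylhydrolase of platelet activating factor, was the enzyme that differed the other way. Its signals were 154, 145, 149 and 145 in controls 1 to 4 and 156, 178, 186 and 185 in lithium samples 1 to 4. The groups did not overlap, although lithium array 1 lay close to the controls, and the log2 fold change of 0.25 ± 0.07 (SE) did not pass the test (adjusted p = 0.135). Aldh1l1, a folate enzyme used as a marker of astrocytes, had means of 310.4 ± 44.0 and 234 ± 100.4 (SD, n = 4 and 4; log2 fold change -0.51, 95% interval -1.31 to 0.28). Cbs, or cystathionine beta-synthase, and Acsbg1, an acyl-CoA synthetase, had log2 fold changes of -0.40 and -0.28 with intervals of -1.76 to 0.95 and -0.86 to 0.31. For both genes the signals of the groups overlapped.

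Among lipid-binding and secreted proteins, Fabp7, the brain fatty acid binding protein of radial glia and astrocytes, had signals of 192, 201, 155 and 141 in controls 1 to 4 and 125, 99.5, 93.2 and 102 in lithium samples 1 to 4. All lithium values were below all control values. The mean was 172 ± 29.2 in control and 105 ± 14.1 in lithium (SD, n = 4 and 4), and the log2 fold change of -0.71 ± 0.15 (SE) had an adjusted p of 0.0669. It passed on the log2 scale of the value plus 16 (adjusted p = 0.0416) and with the term for the array pairs (adjusted p = 0.0199). It also passed in the fit on averaged probe sets (adjusted p = 0.0494). Fabp7 has only 1 probe set, however, so its values were unchanged there and only the other rows of the fit differed. It did not pass with the replicate block (adjusted p = 0.0880) or with any single array left out (adjusted p = 0.0793 to 0.158).

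The other genes of that role had positive log2 fold changes that did not pass. Apoe, the main lipid carrier made by astrocytes, had 0.36 (95% interval -0.18 to 0.90, adjusted p = 0.479), Clu, or clusterin, had 0.14, S100b, a calcium binding protein, had 0.11 and Agt, or angiotensinogen, had 0.03. Of all arrays, control array 4 had the highest signal for 11 of the 37 genes and lithium array 1 for 10, Apoe, Clu and S100b among them. The lowest signal was on lithium array 2 for 10 genes and on lithium array 1 for 8. Without lithium array 1 the log2 fold change of Apoe was 0.15, that of Clu 0.02 and that of Vim -0.05.

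The sequences before the transcription start are shown for the genes without group overlap that had a single promoter among those searched. They come from a RefSeq table (mouse build GRCm38.p6) and place the genes described above in the genome. Each runs 5′ to 3′ on the gene's strand over the 250 bases before the start, with capitals on a motif match. The regions are chr12:90739039-90739288 on the minus strand for Dio2, chr10:57784673-57784922 on the plus strand for Fabp7 and chr17:43568201-43568450 on the plus strand for Pla2g7.
Dio2: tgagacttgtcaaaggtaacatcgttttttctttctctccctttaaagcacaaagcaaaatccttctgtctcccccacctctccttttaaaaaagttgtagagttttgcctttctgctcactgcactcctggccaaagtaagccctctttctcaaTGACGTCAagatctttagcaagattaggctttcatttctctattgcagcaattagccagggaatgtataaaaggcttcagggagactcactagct
Fabp7: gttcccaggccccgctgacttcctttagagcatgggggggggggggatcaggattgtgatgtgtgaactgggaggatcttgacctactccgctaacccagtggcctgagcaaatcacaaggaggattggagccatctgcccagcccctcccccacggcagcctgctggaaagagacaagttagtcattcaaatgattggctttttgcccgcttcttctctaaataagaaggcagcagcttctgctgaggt
Pla2g7: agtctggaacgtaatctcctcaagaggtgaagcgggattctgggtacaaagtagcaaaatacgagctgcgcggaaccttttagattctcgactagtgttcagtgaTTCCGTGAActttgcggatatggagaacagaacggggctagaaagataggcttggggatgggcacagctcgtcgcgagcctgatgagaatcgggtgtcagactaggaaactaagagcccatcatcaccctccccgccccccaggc

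In Dio2 the capitals mark TGACGTCA, the cAMP response element, whose first base lies 95 bases before the start. In Pla2g7 they mark a match to the STAT motif TTCNNNGAA, whose first base lies 145 bases before the start. Promoters on 1 chromosome were left out before the search. The rest held 42 promoters of 33 of the 37 genes, with none for Slc14a1, Aqp4, Clu and Sox9. Absence here therefore does not mean that the source had no entry. Searched on both strands, the STAT motif was in 6 of the 42 (14.3%; Acsbg1, Agt, Aldoc, Ntsr2, Pla2g7 and Slc1a3), against 7.02% of 32851 promoters of the same length. The TCF/LEF motifs CTTTGAT and CTTTGAA, bound by the factors through which beta-catenin acts, were in 1 (2.38%; Slc1a2), against 7.48%. The cAMP response element, chosen after the Dio2 sequence was seen, was in 2 (4.76%; Dio2 and Pax6), against 1.55%.

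All 4 receptor genes had negative log2 fold changes, and none passed the test. Ntsr2, the neurotensin receptor of astrocytes, had signals of 117, 105, 139 and 161 in controls 1 to 4 and 30.5, 50.4, 73.8 and 107 in lithium samples 1 to 4. Lithium array 4 alone reached the control range, and the log2 fold change was -1.12 ± 0.38 (SE) with an adjusted p of 0.188. F3, or tissue factor, ranged from 129.9 to 204 in control and from 98.0 to 131 in lithium (log2 fold change -0.62, 95% interval -1.05 to -0.20, adjusted p = 0.129).

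Fgfr3, a fibroblast growth factor receptor, had signals of 149 to 178 in control, of 53.5 and 50.3 on lithium arrays 1 and 2 and of 139 and 152 on lithium arrays 3 and 4. Lithium arrays 1 and 2 were thus far below every control for Fgfr3, lithium array 3 just below and lithium array 4 within the control range, and its log2 fold change of -0.90 had an interval of -1.86 to 0.06. Gpr37l1, an orphan receptor of astrocytes, had signals of 279 to 337 in control, 178 and 154 on lithium arrays 1 and 2 and 319 and 367 on lithium arrays 3 and 4. Its first pair of lithium arrays was below every control, lithium array 3 was within the control range and lithium array 4 was above it.

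None of the transcription factors passed the test. Sox9, a factor of glial fate, had a log2 fold change of 0.02 (95% interval -0.37 to 0.41), Sox2, of progenitors and glia, one of -0.08 (interval -0.45 to 0.29), and Pax6, a paired box factor, one of -0.10 (interval -0.30 to 0.09). Hopx, the homeodomain-only protein, had means of 575 ± 160.0 in control and 427 ± 112 in lithium (SD, n = 4 and 4; log2 fold change -0.42, interval -1.03 to 0.19). Controls 1 and 2 were higher than controls 3 and 4 for Hopx, at 712 and 714 against 438 and 434.

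By role, the median log2 fold change was 0.10 for filaments (3 genes), 0.09 for glutamate and amino acid handling (4), -0.11 for water, urea and ion channels (8) and -0.76 for junctions (3, or -0.35 without Cldn10). It was -0.46 for metabolic enzymes (6), 0.11 for lipid-binding and secreted proteins (5), -0.76 for receptors (4) and -0.09 for transcription factors (4). These medians rest on few genes and are descriptions. Within arrays, the log2 difference between 2 genes of 1 role was compared for 6 pairs, Slc1a2 and Slc1a3, Gjb6 and Gja1, Gfap and Vim, Aqp4 and Kcnj10, Mlc1 and Hepacam, and Sox2 and Sox9. None passed between lithium and control in a two-sided exact permutation test (p = 0.343 to 0.886, adjusted 0.886 for each), for which 0.0286 was the smallest p possible and 0.171 the smallest adjusted p of a pair that differed alone. Apart from Gjb6 and Gja1, the lithium minus control value of these differences lay between -0.20 and 0.18 on the log2 scale.

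Arrays of the same number deviated together, and the pair of arrays 1 and 2 could be set against the pair of arrays 3 and 4. The sign of the log2 fold change was the same in both pairs for 21 of the 37 genes, lower in 15 and higher in 6, and opposite for 16. The values in arrays 1 and 2 and in arrays 3 and 4 were -1.53 and -1.56 for Slc14a1, -0.82 and -0.60 for Fabp7 and -0.75 and -1.06 for Aldoc. A log2 fold change under -0.5 was found for 14 genes in arrays 1 and 2 and for 8 in arrays 3 and 4. Dio2 had -2.01 in arrays 1 and 2 and -0.65 in arrays 3 and 4, Fgfr3 -1.64 and -0.16, Gjb6 -1.73 and 0.21, and Gpr37l1 -0.95 and 0.17. F3 and Acsbg1 went the other way, with -0.22 and 0.13 in arrays 1 and 2 and -1.03 and -0.69 in arrays 3 and 4. The difference between the array pairs was not tested.

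**Figure D3:**
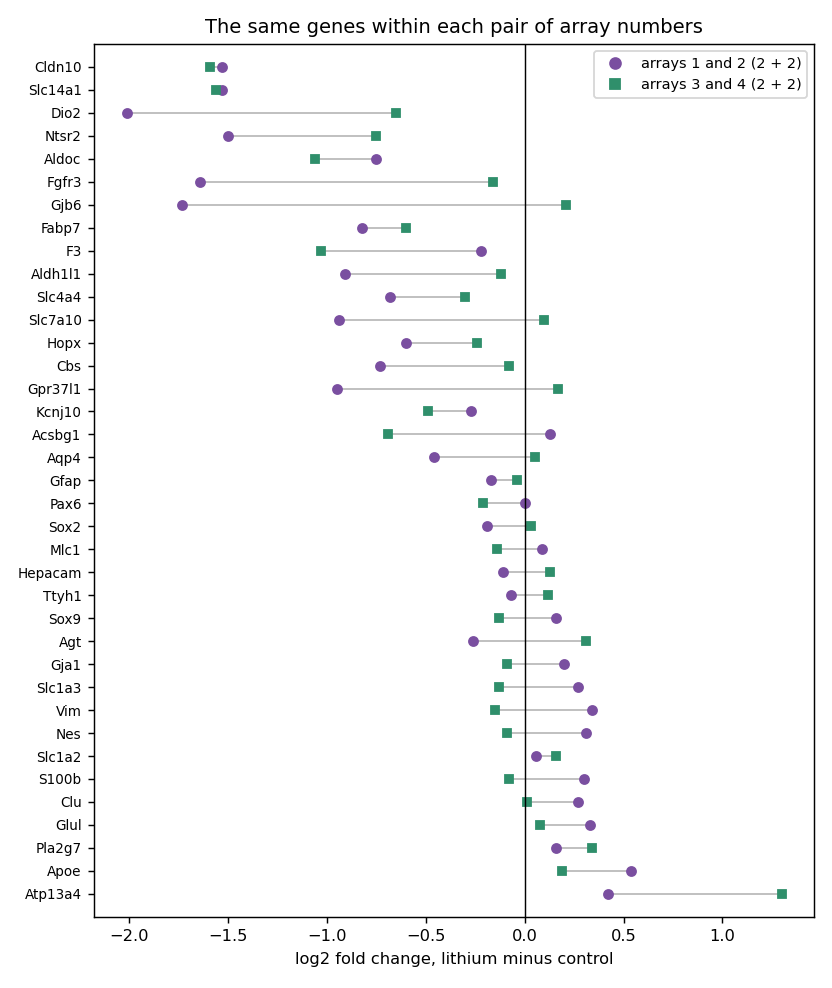
Log2 fold change of each astrocyte gene, lithium minus control, computed within arrays 1 and 2 (circles, 2 and 2 arrays) and within arrays 3 and 4 (squares, 2 and 2 arrays), ordered by the value over all arrays. Slc14a1 has nearly the same value in both pairs (-1.53 and -1.56), whereas Gjb6 (-1.73 and 0.21), Fgfr3 (-1.64 and -0.16) and Dio2 (-2.01 and -0.65) are lower in arrays 1 and 2.

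A further list of astrocyte-enriched genes held 48 names, of which 45 were measured. None was called lower and 1 was called higher (against 2.05% and 1.18% of all genes), 12 (26.7%) had an unadjusted p under 0.05, against 22.0% of all genes, and the median log2 fold change was -0.32. The gene called was Chrdl1, a secreted antagonist of bone morphogenetic proteins, with signals of 20.0 to 23.8 in control and 35.4 to 51.5 in lithium (log2 fold change 0.95, adjusted p = 0.0263). In the fit with the replicate block its adjusted p was 0.0631, and with single arrays left out it passed in 2 of 8 fits, with a highest adjusted p of 0.0764. The lithium signals of 9 of the 45 (20.0%) lay below all control signals, against 8.79% of all genes. Those of 1 (2.22%) lay above, against 6.30% of all genes. The summed signal of the list was 14516 to 15940.3 in control and 10558 to 13466 in lithium, which did not overlap. The lowest adjusted p of the 9 was that of Timp4, an inhibitor of metalloproteinases (log2 fold change -1.80, adjusted p = 0.0586).

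Of 60 related genes in 5 lists, 1 was called lower (1.67%, against 2.05% of all genes) and 3 higher, against 1.18%. Of 12 other genes of glutamate, GABA and glutamine handling and of 11 other connexins and pannexins none was called, 2 (16.7%) and 4 (36.4%) had an unadjusted p under 0.05, against 22.0% of all genes, and the median log2 fold changes were -0.17 and -0.80. The connexins and pannexins had summed signals of 886 to 1002 in control and 288 to 821 in lithium. Among 13 other genes of endfeet, water and ion transport, 5 had an unadjusted p under 0.05, and Dtna, or alpha-dystrobrevin of the dystrophin complex, was called higher (154 ± 6.66 against 245 ± 36.1, SD, n = 4 and 4; log2 fold change 0.66, adjusted p = 0.0385). Of 13 other enzymes of folate, serine and sulfur amino acid metabolism 10 had positive log2 fold changes and 6 an unadjusted p under 0.05, and their summed signal was 4255 to 4555 in control and 4702 to 7065 in lithium. Of these enzymes Cth, which acts after Cbs in the making of cysteine, was called higher (16.6 ± 3.74 against 41.2 ± 9.01; log2 fold change 1.31, adjusted p = 0.0428). Of 11 other intermediate filament genes, Nefm, a neurofilament of axons, was called higher from signals of 3.83 to 6.20 (log2 fold change 1.43, adjusted p = 0.0374) and Lmnb1, a lamin of the nucleus, lower (log2 fold change -1.16, adjusted p = 0.0481). These genes were not called in a fit with the replicate block, apart from Nefm (adjusted p = 0.0477), and with single arrays left out none passed in more than 1 of 8 fits.

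Set against markers of other cells, the labelled tissue gave high signals of astrocyte and oligodendrocyte genes on all arrays and signals near background of most photoreceptor genes. The summed signal of 11 oligodendrocyte markers was 13449 to 14733 in control and 13476 to 17312 in lithium, with none called and 1 at an unadjusted p under 0.05. That of 8 markers of oligodendrocyte precursors was 1893 to 2329 and 1671 to 2011, with none called and 2 at an unadjusted p under 0.05. Pdgfra (log2 fold change -1.52) stood both on this list and on that of the fibroblast markers below. For 10 photoreceptor and other retinal neuron markers the sums were 123 to 162 and 108 to 144, none was called or had an unadjusted p under 0.05, and Pde6b, Nrl, Crx and Prph2 were under the poly-A control limit on every array. For 7 retinal ganglion cell markers they were 208 to 265 and 133 to 240.4, with none called and 2 at an unadjusted p under 0.05. Over all genes, 22.0% had an unadjusted p under 0.05.

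Of 7 markers of Müller glia, which share many genes with astrocytes, 1 was called lower (Rdh10, log2 fold change -1.91, adjusted p = 0.0140), and their sums were 759.6 to 1117 in control and 460.0 to 916 in lithium. Of 9 microglia markers Trem2 was called lower (-1.19, adjusted p = 0.0335), with sums of 3571 to 4470.0 and 3377 to 4098. Of 9 endothelial markers Kdr was called lower (-1.35, adjusted p = 0.0321), with sums of 446 to 846 and 240.3 to 553. Of 9 markers of pericytes and smooth muscle Pdgfrb was called lower (-2.14, adjusted p = 0.0401), with sums of 1213 to 1939 and 1109.8 to 2031. The 1 gene called made up 14.3% of the Müller glia list and 11.1% of each of the other 3, against 2.05% of all genes called lower. Positive log2 fold changes were found for 2 of the Müller glia, 3 of the microglia and 3 of the endothelial markers.

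Of the pericyte markers, 8 of 9 had negative log2 fold changes, with a median of -0.68. Without Tagln, left out after its values were seen because its signal took up much of the sum, the sums of the other 8 were 336 to 915 in control and 190.4 to 298 in lithium and did not overlap. Tagln was also the only pericyte marker with a positive log2 fold change (0.25), and with it included the sums overlapped.

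The summed signal of the fibroblast markers was 4747 to 6778 in control and 1898 to 3743 in lithium, which did not overlap. All 12 had negative log2 fold changes with a median of -1.56, 8 (66.7%) lay below all controls, against 8.79% of all genes, and 2 (16.7%) were called lower, against 2.05%, Foxc1 (-1.64, adjusted p = 0.0108) and Lum (-1.93, adjusted p = 0.0469). With single arrays left out, Foxc1 and Rdh10 passed in 8 of 8 fits and the other called markers in at most 1. None of these called markers passed with the replicate block, where Foxc1 had an adjusted p of 0.0564. The part of fibroblasts or vessel cells in the fall of Slc14a1 and in the lower signals of Fabp7, Dio2 and Slc4a4 was not tested.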

How the data were processed

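RNA of 8 samples, 4 lithium and 4 control as labelled, was measured on one-colour arrays. The authors deposited MAS5 intensities on a linear scale, 1 for each of 45101 probe sets and array, scaled to a trimmed mean of 100 and made in GeneSpring. Columns of other series numbered 0. Leaving out 64 control probe sets, 45037 were tested. Of all probe sets 34958 had 1 symbol, 932 several and 9211 none, and genes were named from the first kind only, which gave 18193 genes with 1 probe set each. Intensities were floored at 1 (14.5% of values), which understates folds of dim genes, and taken to log2. The contrast of lithium with control was tested with limma 3.58.1 (lmFit, eBayes; R 4.3.3) without a block, with Benjamini-Hochberg adjustment over the 45037 probe sets. The fit was tested on simulated data. A gene under the highest of 27 poly-A control signals on all arrays of a group was treated as a bound. Exact permutation tests used scipy 1.17.1 in Python 3.11.15, and figures matplotlib 3.10.9. Precision is limited by the small number of arrays.

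The 37 genes, the 15 other lists, the tests and the alternatives were chosen with earlier results of these data known. All 37 genes were named, with every array's value where a gene was called or its groups did not overlap. Values in every array for Aldoc, Ntsr2, Gjb6 and Fgfr3 were added after their values were seen, as was the naming of Timp4. Of each list, up to 2 rising and 2 falling genes with the lowest adjusted p were named among those called.

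After the group means were subtracted, arrays that share a number correlated (0.13 to 0.197 over 4 pairs), so that the numbers were taken as pairs, from the data and not the labels. Arrays of the other number within 1 and 2 or within 3 and 4 had correlations of 0.071 to 0.131, and the mean across these pairs was -0.136.

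Alternatives were quantile normalization, median centring, log2 of the value plus 16, a level of 200, all probe sets of a gene averaged, no probe sets with the suffix _x_at or _s_at, a trended and robust variance, the replicate block, a term for the array pairs, each array pair alone and each array left out.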

Additional observations from a re-analysis of the deposited data

Results flagged for a closer look

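Hepacam had 1 lithium array far from the other 3, with a signal of 149 on lithium array 2 against 245 to 261 on the others. The gap took up 0.890 of the group's range, above Dixon's critical value for 4 samples. It was 1 of 74 groups examined, and chance alone gives such a gap in about 1 in 20.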

How the results depend on the processing

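Of the 37 astrocyte genes, 1 was called lower. The count was 2 after quantile normalization, after median centring and with a trended and robust variance (Cldn10 was added), 3 with log2 of the value plus 16 (Fabp7 and Slc4a4 added) and 3 with the mean of probe sets (Cldn10 and Fabp7 added). Cldn10 and Fabp7 have 1 probe set each, so averaging left their values unchanged and only the other rows of that fit differed. The count in the other settings varied too. It was 4 with a level of 200 (Aldoc, Dio2 and Slc4a4 added), 4 with the term for arrays 1 and 2 against 3 and 4 (Aldoc, Cldn10 and Fabp7 added) and 0 in arrays 1 and 2 alone and in arrays 3 and 4 alone. With single arrays left out it was 1 to 2, the 2 without lithium array 2 (Cldn10, adjusted p = 0.0453). With the replicate block it stayed at 1. The count of genes called higher was 0 in each of these fits. Of the other astrocyte-enriched genes, none was called lower, against 1 (Timp4) after quantile normalization, after median centring, with the value plus 16, with the mean of probe sets and with the trended variance, 2 with the term for the array pairs (Ppp1r3c and Timp4) and 3 with a level of 200 (Cyp2d22, Ppp1r3c and Timp4). These 3 genes met the level in control only, with means of 218, 210.4 and 218 against 95.3, 102 and 59.8 in lithium. A level required in only 1 group admits such genes through the group where they are high, so these calls add no evidence of a fall. The 1 called higher (Chrdl1) was 0 with a level of 200, with the mean of probe sets, with the replicate block and in each array pair alone, and 0 to 1 with single arrays left out, lost when any single control array, lithium array 1 or lithium array 3 was left out. The median log2 fold change of the 37 genes lay between -0.19 and -0.02 over the settings that could move it, and between -0.15 and -0.11 with single arrays left out, and it was -0.10 without Cldn10, a setting chosen after the data were seen. Of 690 refits of single genes 14 were newly past the threshold, 2 (Slc14a1 in each array pair alone) no longer passed and 0 reversed a called direction, while 53 changed the sign of a gene that passed in neither fit (20 genes). Without probe sets with the suffix _x_at or _s_at, Cldn10 had no value. With 4 arrays a group, only 21 of the 37 intervals excluded a 2-fold change in both directions, and genes near the poly-A control signals (Cldn10, Slc7a10) carried little information. The cause of each change was not tested.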
